A study of Homo sapiens with 2 samples.

Results

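Ephrins, Eph receptors, plexins, netrins, UNC5 receptors and slits were described in MCF-10A cells, an established non-tumorigenic line of human mammary epithelium, of which 1 sample stably expressed the EGFP vector and the other EGFP-ARHGAP4, the RhoGAP protein ARHGAP4 fused to EGFP. Each sample was measured on 1 Affymetrix whole-transcript array, so there are no replicates. No value below carries an SD or a p-value, and no difference can be set against the spread between cultures. The labels do not say whether the lines were pools or clones, or which promoter drove the fusion.

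The genes were chosen by symbol, through a pattern for the SEMA, PLXN, EPH, EFN, ROBO, SLIT, NTN and UNC5 families. It took in 46 of the 14812 named genes, each resting on 1 array feature. Of these, 43 are protein-coding and 3 are antisense RNAs (EPHA1-AS1, EPHA5-AS1 and UNC5B-AS1). The pattern matched 0 semaphorin and 0 ROBO genes among the named features, so the semaphorin ligands and the slit receptors were not analysed here. UNC50, which is unrelated to the netrin receptors, and UNC5CL, an intracellular relative of UNC5C, were taken in by the start of their symbols. They are kept in the counts, and 41 genes are left without them.

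Guidance cues were named for steering axons, and epithelial cells use the same molecules to control adhesion, spreading, repulsion and boundary formation. Ephrins are cell-surface ligands of the Eph receptor tyrosine kinases: ephrin-A proteins are held by a GPI anchor and ephrin-B proteins span the membrane, and both partners can signal. Plexins are the receptors of semaphorins and act on small GTPases, netrins bind DCC, neogenin and UNC5 receptors, and slits bind Robo receptors. In the mammary gland netrin with neogenin, slit with Robo, and Eph signalling are known from work on duct formation. ARHGAP4 has the same order of F-BAR, RhoGAP and SH3 domains as the srGAP proteins, which were found as partners of Robo receptors.

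Most of the guidance genes differed little between the arrays, and the largest difference was that of the netrin receptor gene UNC5D. A gene was taken past the level filter when the higher of its log2 values reached 4.02, the median of all gene-level values, which 21 of the 43 did. Differences are EGFP-ARHGAP4 minus EGFP vector. A difference of at least 0.5 was seen for 4 genes that were higher (UNC5D, EFNA1, EPHA1 and PLXNB2) and 3 that were lower (EFNA5, SLIT2 and EFNB1), while 14 differed by less. That is 19.0% and 14.3% of the 21, where 5.15% of all 7685 genes past the filter were higher by 0.5 and 9.81% lower. UNC5D alone was at least 2-fold higher, where 1% of all genes were, and 0 of the 21 were at least 2-fold lower, where 0.794% of all genes were. UNC5D also was the only one of the 21 to pass the filter through the EGFP-ARHGAP4 array alone, so its place among them depends on its difference.

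The upstream sequences of the genes that differed by 0.5 or more are shown for 6 of these 7 (UNC5D is left out) so that the start regions of genes on either side can be compared. Each is the 250 bases before the RefSeq transcription start in GRCh38.p14, read 5′ to 3′ in the direction of the gene. Capitals mark GC boxes, the letters GGGCGG or their complement CCGCCC, which Sp-family factors bind. Which start site the cells used was not measured.
EFNA1, chr1:155127626-155127875, plus strand: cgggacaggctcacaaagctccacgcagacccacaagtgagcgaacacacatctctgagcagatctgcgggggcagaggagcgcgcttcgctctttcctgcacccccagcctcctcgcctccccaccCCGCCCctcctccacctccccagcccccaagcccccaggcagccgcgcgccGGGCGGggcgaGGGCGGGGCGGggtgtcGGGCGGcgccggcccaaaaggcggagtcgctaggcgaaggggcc
EPHA1, chr7:143408857-143409106, minus strand: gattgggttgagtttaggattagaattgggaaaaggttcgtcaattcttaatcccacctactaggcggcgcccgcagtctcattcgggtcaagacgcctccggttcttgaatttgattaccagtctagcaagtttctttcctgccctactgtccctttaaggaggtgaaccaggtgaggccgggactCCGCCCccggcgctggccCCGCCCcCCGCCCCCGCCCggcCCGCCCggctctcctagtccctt
PLXNB2, chr22:50301670-50301919, minus strand: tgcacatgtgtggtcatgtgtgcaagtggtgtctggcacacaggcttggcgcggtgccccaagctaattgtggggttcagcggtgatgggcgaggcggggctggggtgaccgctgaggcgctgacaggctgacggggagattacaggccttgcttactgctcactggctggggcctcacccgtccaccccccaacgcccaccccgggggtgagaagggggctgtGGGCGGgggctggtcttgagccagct
EFNB1, chrX:68828771-68829020, plus strand: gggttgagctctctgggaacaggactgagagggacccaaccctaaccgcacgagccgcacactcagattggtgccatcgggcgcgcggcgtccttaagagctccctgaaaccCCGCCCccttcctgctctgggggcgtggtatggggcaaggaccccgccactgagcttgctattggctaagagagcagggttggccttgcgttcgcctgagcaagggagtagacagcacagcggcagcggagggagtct
SLIT2, chr4:20251655-20251904, plus strand: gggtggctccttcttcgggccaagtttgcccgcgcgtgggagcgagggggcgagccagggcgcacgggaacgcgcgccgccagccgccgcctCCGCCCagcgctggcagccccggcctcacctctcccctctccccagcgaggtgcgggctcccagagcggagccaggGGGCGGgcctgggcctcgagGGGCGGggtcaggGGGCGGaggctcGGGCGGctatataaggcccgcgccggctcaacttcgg
EFNA5, chr5:107670938-107671187, minus strand: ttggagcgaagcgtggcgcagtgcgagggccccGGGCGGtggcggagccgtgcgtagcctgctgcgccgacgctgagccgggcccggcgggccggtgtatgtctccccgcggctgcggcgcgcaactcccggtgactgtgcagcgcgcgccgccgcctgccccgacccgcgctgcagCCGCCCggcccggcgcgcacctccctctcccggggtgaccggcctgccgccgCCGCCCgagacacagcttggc

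All 6 windows held a GC box, and 42.3% of the first listed windows of 27305 genes did. EFNA1, EPHA1 and SLIT2 held 5 matches each, EFNA5 held 3, and PLXNB2 and EFNB1 1 each. Genes higher and lower in the EGFP-ARHGAP4 array were thus found at both ends of that range. The base composition ran from 59.2% G and C in EPHA1 to 79.6% in EFNA5. The median was 58.0% over all genes and 67.6% over the 37 protein-coding guidance genes with a window. On either strand, the exact letters TATAAA of a TATA box were in 0 of these 6 windows and in 11.1% of all; variants of these letters were not searched. The AP-1 element TGACTCA, searched in the same way, was likewise in 0 of the 6 and in 4.16% of all. An E-box of the letters CACGTG, which is its own complement, was in 0 of the 6 and in 6.49% of all windows. For the TEAD core GGAATG the count was again 0 of 6, where 11.9% of all windows held a match. Over all the protein-coding guidance genes, 37 of 43 had a window in the table, and 31 of the 37 held a GC box.

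**Figure D1:**
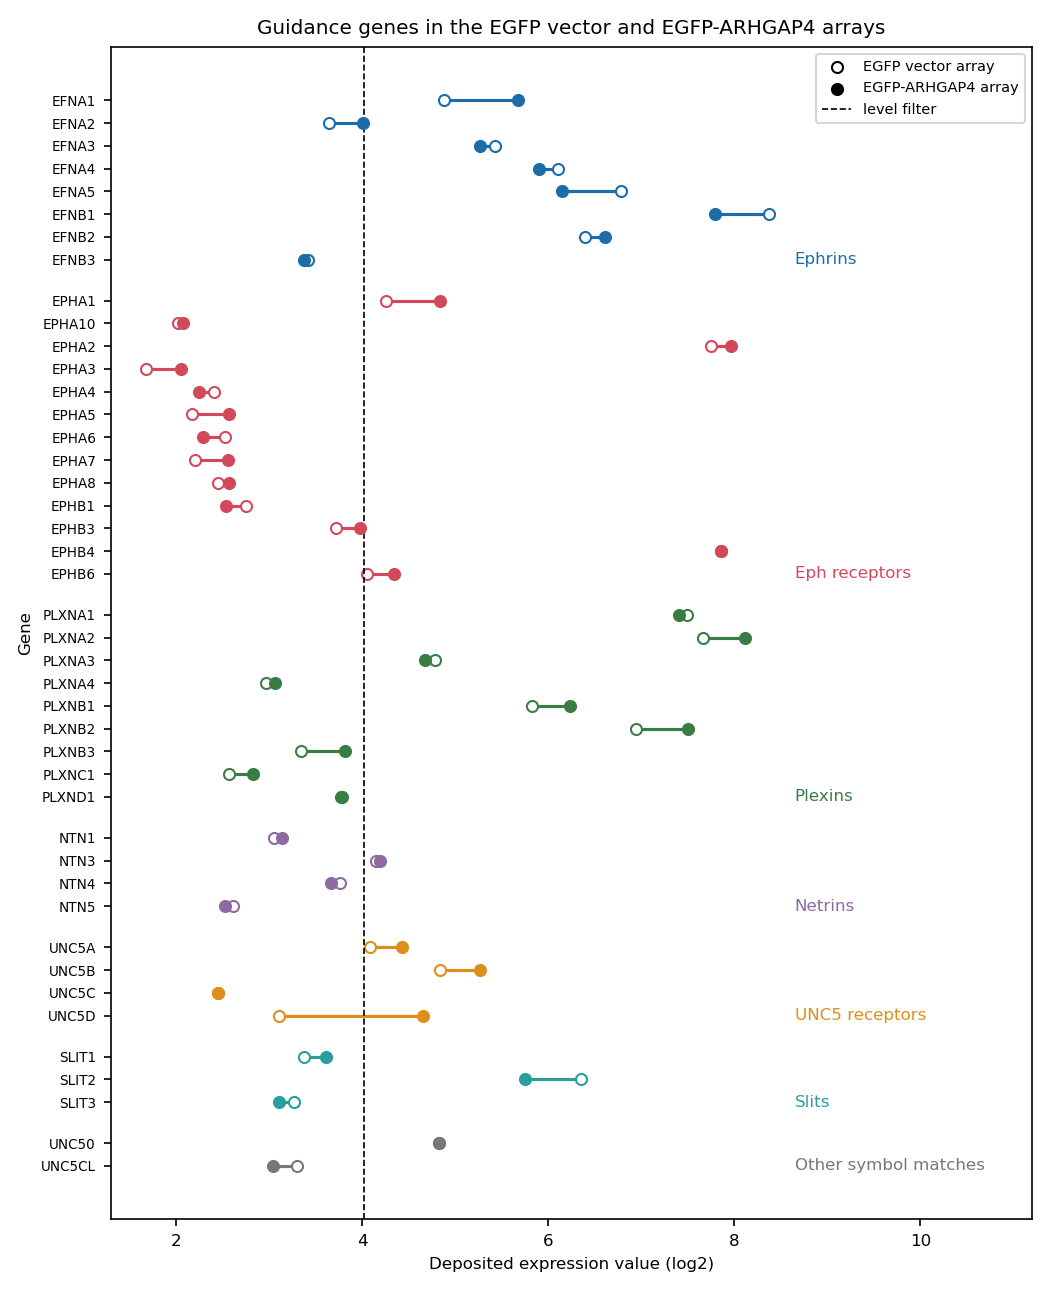
Deposited log2 expression value (horizontal axis) of the 43 protein-coding genes, grouped by family; open points are the EGFP vector array, filled points the EGFP-ARHGAP4 array, and the dashed line is the level filter at 4.02. UNC5D has the longest bar, from 3.11 to 4.66, and the ephrin genes EFNA1 and EFNA5 run in opposite directions.

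The ephrin ligands went both ways. Of 8 ephrin genes measured, 6 passed the filter, 2 of them above 0 and 4 below, where 36.7% of all genes past the filter were above 0. EFNA1, a GPI-anchored ligand known as a target of tumour necrosis factor in endothelium, had log2 values of 4.88 with the EGFP vector and 5.68 with EGFP-ARHGAP4. It was 0.80 higher, or 1.74-fold, and 3.94% of all genes past the filter differed by at least as much in either direction. EFNA5, a GPI-anchored ligand of broad EphA binding, stood at 6.78 against 6.15, a difference of -0.64. EFNB1, a transmembrane ligand of EphB receptors known for setting tissue boundaries, stood at 8.37 against 7.80, or -0.57. These 2 genes were both about 1.5-fold lower, and as many as 7.79% and 10.8% of all genes differed by at least their size.

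The other ephrins lay closer to 0. EFNA3 stood at 5.43 against 5.26 and EFNA4 at 6.11 against 5.91, differences of -0.16 and -0.20. EFNB2, the transmembrane ligand of EphB4 in vessel growth, stood at 6.39 against 6.62, a difference of 0.22. EFNA1, EFNA3 and EFNA4 follow one another on chromosome 1 in the gene table, and EFNA1 differed from its 2 ephrin neighbours in sign. EFNA2 (3.65 against 4.01) and EFNB3 (3.42 against 3.37) stayed below the filter in both arrays.

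The Eph receptors differed little. Of 13 measured 10 were above 0 and 3 below, where 41.6% of all named genes were above 0. The 4 that passed the filter were at or above their EGFP vector value, where 36.7% of all genes past it were above 0. EPHA1 stood at 4.26 against 4.84, a difference of 0.59. It was the only Eph receptor at 0.5, and 9.89% of all genes differed by at least as much. EPHA2, the EphA receptor best known from mammary epithelium, stood at 7.75 against 7.96, or 0.21. EPHB4, the receptor of ephrin-B2, stood at 7.86 in both arrays, with a difference of 0.005 that turned negative when the median of neighbouring genes was taken off. EPHB6, which lacks kinase activity, stood at 4.05 against 4.34, or 0.29.

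The receptors EPHA3, EPHA4, EPHA5, EPHA6, EPHA7, EPHA8, EPHA10, EPHB1 and EPHB3 lay below the filter in both arrays. Of these, EPHA5 had the largest difference, at 0.40, followed by EPHA3 at 0.37 and EPHA7 at 0.36. EPHA6 had the lowest, at -0.23, followed by EPHB1 at -0.21 and EPHA4 at -0.16. Among all 22 guidance genes below the filter, differences ran from -0.26 to 0.48 with an SD over genes of 0.23. All 7127 named genes below the filter had an SD of 0.27, so these small shifts are of the size seen across dim genes in general.

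Among the plexins, the 3 class B receptors had differences between 0.41 and 0.55. PLXNB1 and PLXNB2 passed the filter, and PLXNB2 alone reached 0.5. PLXNB1, the receptor of semaphorin 4D, stood at 5.82 against 6.23, a difference of 0.41. PLXNB2 stood at 6.95 against 7.50, or 0.55, which is 1.46-fold. PLXNB3, below the filter and so among the dim genes, stood at 3.34 against 3.82, or 0.48. Of the class A receptors, which take up class 3 semaphorins together with neuropilins, PLXNA2 was higher, at 7.67 against 8.12, or 0.45. PLXNA1 stood at 7.49 against 7.41 and PLXNA3 at 4.79 against 4.68, differences of -0.08 and -0.11. Under quantile normalization, centring and loess, and after taking off the neighbours' median, 8 of the 9 plexins lay above 0, against 7 as deposited, since PLXNA1 changed sign in each. The share of all named genes above 0 was also larger under these settings, at 48.4% to 59.0% against 41.6%. PLXNC1, the receptor of semaphorin 7A, PLXND1 and PLXNA4 were below the filter, at differences of 0.26, 0.01 and 0.10.

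Netrins themselves lay near or below the level filter and differed by less than 0.1. NTN3 alone passed the filter, at 4.15 against 4.20. NTN1, the classical netrin, stood at 3.05 against 3.14, NTN4, a laminin-binding netrin of basement membranes, at 3.76 against 3.66, and NTN5 at 2.61 against 2.53.

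Their receptors of the UNC5 family were higher or equal. UNC5D stood at 3.11 with the EGFP vector, below the filter, and at 4.66 with EGFP-ARHGAP4. It was 1.55 higher, or 2.93-fold, which ranked 28 from the top among the 7685 genes, and 0.442% of them differed by at least as much. With 1 of its values below the filter, this fold is approximate. UNC5B, a dependence receptor of netrin known from vessels and from p53-linked cell death, stood at 4.84 against 5.27, a difference of 0.43. UNC5A stood at 4.09 against 4.43, or 0.34. UNC5C stood at 2.45 in both arrays, identical to the last digit, and so did UNC50 at 4.83. Such identity was found in 3106 of 44629 features, and its source is not given. UNC5CL was below the filter at 3.31 against 3.05.

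Of the slits, SLIT2 alone passed the filter. It stood at 6.35 against 5.76, a difference of -0.59 or 1.51-fold lower, and 9.68% of all genes differed by at least as much. SLIT1 (3.38 against 3.62) and SLIT3 (3.26 against 3.11) were below the filter in both arrays. The 3 antisense RNAs were also below it, at differences of 0.06 for EPHA1-AS1, -0.02 for EPHA5-AS1 and 0.13 for UNC5B-AS1.

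**Figure D2:**
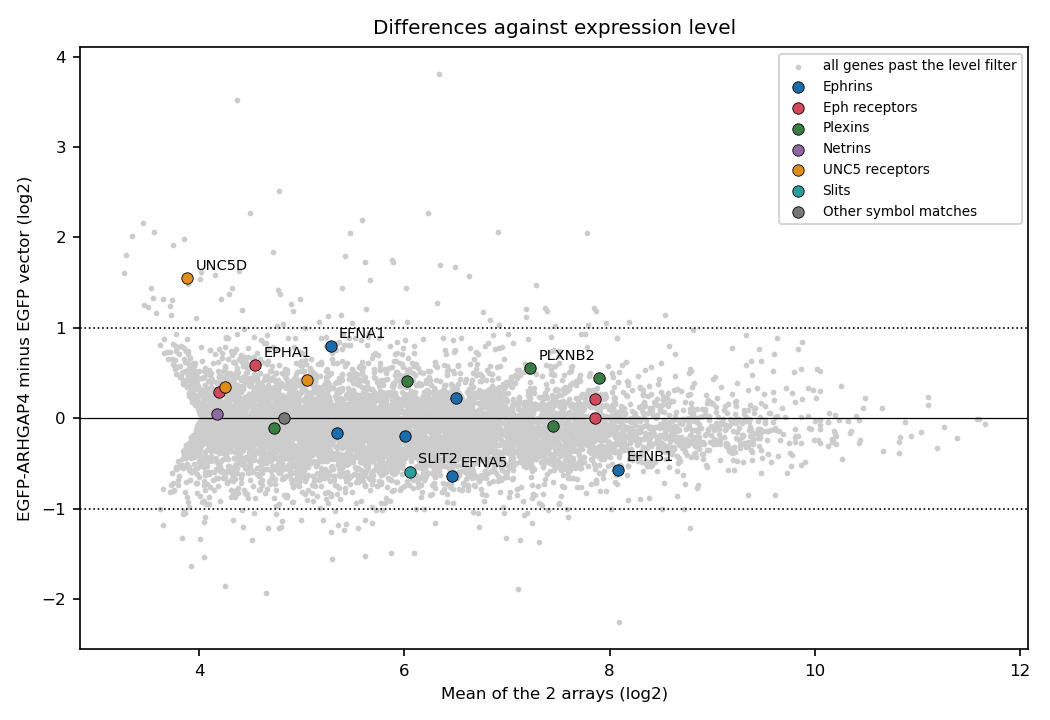
Difference between the arrays (EGFP-ARHGAP4 minus EGFP vector, log2) against the mean of both values (log2) for the 7685 genes past the level filter in grey, with the 21 guidance genes in colour by family; dotted lines mark 2-fold. UNC5D lies above the upper dotted line at 1.55 and the other 20 lie between the lines.

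Read by role, receptors lay higher than ligands. Among the receptor genes (Eph, plexin and UNC5A to UNC5D), 20 of 26 measured were above 0, 5 below and 1 equal, with a median difference of 0.26. Among the ligand genes (ephrins, netrins and slits), 6 of 15 were above 0 and 9 below, with a median of -0.08. Over all named genes 41.6% were above 0 and the median was -0.03. Past the filter the counts were 10 of 12 receptors and 3 of 8 ligands, where 36.7% of all genes were above 0 and the median was -0.10. Of these receptors, UNC5D passed the filter through the EGFP-ARHGAP4 array alone, so its place above 0 was fixed by its entry. EPHB4 was above 0 by 0.005 and changed sign when the neighbours' median was taken off. The receptors above 0 numbered 20 to 23 of 26 under the scaling, feature and neighbour settings, while the share of all named genes above 0 moved between 41.4% and 59.0%. Centring adds the same amount to every gene: the ligands above 0 then numbered 9 of 15, with a median of 0.02, where 59.0% of all named genes were above 0 with a median of 0.07. These are descriptions of 2 arrays, and the difference between the roles was not tested. The count over dim genes includes 14 of the 26 receptors and 7 of the 15 ligands.

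Each gene was also set beside the median difference of the 25 nearest genes past the filter on its chromosome. These medians ran from -0.27 to 0.30 around the 21 genes. UNC5D stood against neighbours at -0.27 and was 1.82 above them. EPHA1 was 0.76 above its neighbours, EFNA1 0.63 above and PLXNB2 0.53 above, while EFNB1 set against its neighbours was at -0.54. These 5 genes kept a difference of at least 0.5 on that scale. Of all genes past the filter, 6.32% were higher by 0.5 on the same scale and 4.997% lower. EFNA5 on chromosome 5 had neighbours at -0.27 and was at -0.37 against them, and SLIT2 on chromosome 4 had neighbours at -0.26 and was at -0.33 against them. UNC5B on chromosome 10 had neighbours at 0.30, and its difference over them was 0.13. For these 3 genes the neighbours moved in the same direction. So did those of EFNA1, EFNB1 and PLXNB2, by smaller amounts, at 0.17, -0.03 and 0.02. The neighbours of UNC5D and those of EPHA1, at -0.17, went the other way. The part of neighbours in these results was not tested.

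**Figure D3:**
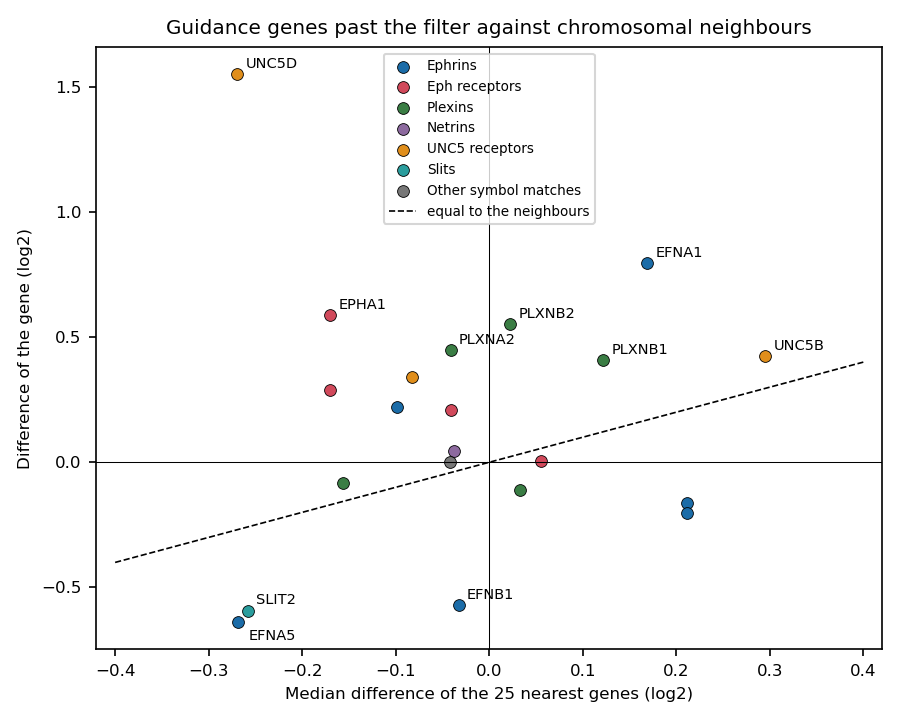
Difference of each of the 21 guidance genes past the filter (vertical axis, log2) against the median difference of its 25 nearest genes past the filter (horizontal axis, log2), coloured by family; the dashed line marks equality with the neighbours. UNC5D, EFNA1, EPHA1 and PLXNB2 lie at least 0.53 above the line, while UNC5B lies 0.13 above it.

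The partners of these receptors, listed by function, included larger differences than the receptors themselves. Of 10 semaphorin co-receptors 8 were measured, 1 above 0 and 7 below, with a median of -0.16, where 41.6% of all named genes were above 0 and the median was -0.03. Past the filter 1 of 5 was above 0, where 36.7% of all genes were. Of the 7, L1CAM, CD72 and HAVCR2 were below the filter in both arrays and changed sign under centring or against their neighbours. NRP1, which joins class A plexins in binding class 3 semaphorins, stood at 5.61 against 3.68, a difference of -1.93. It lies on chromosome 10 with neighbours at -0.83, and was at -1.10 against them. NRP2 stood at 6.08 against 5.89, or -0.19, but lay 0.08 above its neighbours, which turns its sign. KDR, the vascular endothelial growth factor receptor that pairs with neuropilin, stood at 3.36 against 5.63.

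Among netrin and RGM partners 12 of 14 were measured, with a median of 0.00, and 4 passed the filter. NEO1, neogenin, the receptor of netrins and repulsive guidance molecules, stood at 4.06 against 5.47. Its difference of 1.41, or 2.66-fold, ranked 37 from the top, and its neighbours were at -0.02. The EGFP vector value of NEO1 lay just above the filter of 4.02, so this fold is approximate. NEO1 and UNC5D were thus the only measured netrin receptors at 2-fold, while DCC stood at 2.05 in both arrays, below the filter. FLRT3, a transmembrane ligand of UNC5 receptors, stood at 5.55 against 4.43, or -1.13, and FLRT2, a FLRT protein known to bind UNC5D, at 5.51 against 5.47.

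Of 13 measured slit and Robo effectors 2 were above 0 and 11 below, with a median of -0.20 against -0.03 for all named genes. Past the filter 1 of 11 was above 0, where 36.7% of all genes were, and the median was -0.21 against -0.10. SRGAP1 stood at 5.74 against 5.53, SRGAP2 at 7.33 against 7.06 and SRGAP3 at 4.96 against 4.90. None of the srGAP genes differed by 0.5, and SRGAP3 lay above 0 after centring, at 0.03. The only member of that list that was higher past the filter was ARHGAP4 itself, at 4.49 against 6.68. That difference of 2.19 goes in the direction of the labels, although the feature cannot separate the cells' own transcript from the introduced one here. As ARHGAP4 is the introduced gene, its place above 0 in the counts of this list follows from the design. NCK1, an adaptor that links Eph and Robo receptors to actin regulators, stood at 5.92 against 5.28, or -0.64. CHN1, the RacGAP alpha-chimaerin that acts below EphA4, stood at 4.19 against 3.62, or -0.57.

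Of 12 measured plexin effectors 8 passed the filter, and 2 of these were higher by 0.5 and 0 lower, where 5.15% and 9.81% of all genes were. The median of the 12 was -0.03, as over all named genes. DPYSL4, a collapsin response mediator protein, stood at 3.52 against 4.26, or 0.74, and RRAS, a GTPase on which the plexin GAP domain acts, at 7.70 against 8.28, or 0.57. DPYSL4 passed the filter through the EGFP-ARHGAP4 array alone, so its place among the 8 depends on its difference. The 14 measured Eph effectors had a median of -0.02, with 7 above and 7 below 0, where 41.6% of all named genes were above 0. VAV3, an exchange factor of Eph signalling, was 0.58 higher but below the filter in both arrays.

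**Figure D4:**
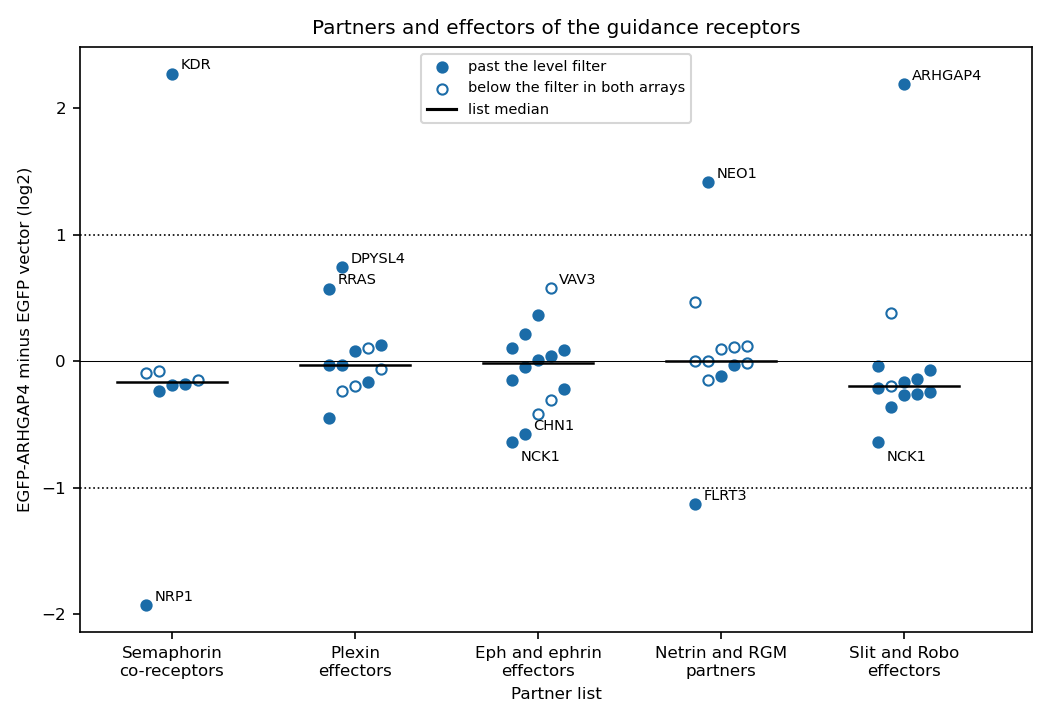
Difference (EGFP-ARHGAP4 minus EGFP vector, log2, vertical axis) of each measured gene in 5 partner lists; filled points pass the level filter, open points do not, black bars are list medians and dotted lines mark 2-fold. KDR, NEO1 and ARHGAP4 lie above 2-fold, NRP1 and FLRT3 below, and the medians run from -0.20 to 0.00.

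Most measured markers of mammary epithelium lay above the filter in both arrays, and the measured neuron markers lay below it. Of 26 epithelial markers 14 were measured and 12 passed the filter, with a range of 2.99 to 10.4 in the EGFP vector array and 3.39 to 10.4 in the EGFP-ARHGAP4 array. Of the 14, 11 were above 0 and 3 below, where 41.6% of all named genes were above 0. A difference of at least 2-fold was seen for 3: KRT14, a basal keratin, at -2.25, the tight junction gene CLDN7 at 1.22 and the adhesion gene EPCAM at 1.202. All 3 passed the filter, where 1% of all genes were at least 2-fold higher and 0.794% lower. The tight junction gene CLDN1, at 8.33 against 9.30, was 0.97 higher. KRT8 was 0.36 higher, and KRT19 0.41 higher but below the filter in both arrays. The keratin genes KRT5 at 0.02, KRT7 at -0.10, KRT15 at 0.22 and KRT16 at -0.16 differed by less, and KRT15 lay below the filter in both arrays. All 6 measured neuron markers of 14 were below the filter, with values up to 3.56 and 3.62. Endothelial markers were measured for 8 of 13, fibroblast markers for 6 of 12 and immune markers for 6 of 13. Their median levels were 3.55 and 3.79, 2.92 and 3.07, and 4.31 and 4.70 in the EGFP vector and EGFP-ARHGAP4 arrays. Past the filter were 3 endothelial, 1 fibroblast and 4 immune markers. Among them ENG (7.95 against 7.41), VIM (7.23 against 6.59) and CD68 (7.32 against 7.80) lay well above it. KDR differed by 2.27 and the immune gene LAPTM5 by 2.05, and none of the other genes of these 3 lists reached 2-fold. Over all named genes 0.581% were at least 2-fold higher and 0.486% lower. The part of these markers in the differences of the guidance genes was not tested.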

How the data were processed

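The deposited table holds 1 log2 expression value per array feature, made by the authors by software, summarisation and normalization that the sources used here do not give; the unit is read from the values. The arrays were grouped by the genotype in the labels. The quartiles of the 2 arrays nearly agree (upper quartile 4.66 and 4.60), so differences are relative to the bulk of features. Symbols came from the platform annotation of 15835 features, and all 46 guidance genes matched the GRCh38.p14 RefSeq table by Entrez identifier. Log2 values of features sharing a symbol were averaged, giving 14812 genes. Promoter sequences are RefSeq's, GRCh38.p14. With 1 array per group no test was possible; calls are differences of 1 (2-fold) or 0.5 on the log2 scale. The number of arrays limits the precision. Every protein-coding guidance gene past the level filter was named by rule; genes below it are named beyond that rule. From partner lists, NRP1, NRP2, DCC, NEO1, the srGAP genes and members differing by 0.5 were named; FLRT2, VAV3 and the marker genes were added after their values were seen. Members and lists were chosen with earlier results of these data known. Alternatives were quantile normalization, centring, loess (span 0.3), the highest feature, subtraction of the median of the 25 nearest genes, other filters and other thresholds. Calculations were tested on simulated data. Python 3.11.15 was used with matplotlib 3.10.9, statsmodels 0.14.6, numpy 2.4.6 and pandas 2.3.3.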

Additional observations from a re-analysis of the deposited data

How the results depend on the processing

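The difference in ARHGAP4 stayed between 2.16 and 2.29 over quantile normalization, centring, loess, the highest feature and subtraction of neighbouring genes. Of the 21 guidance genes past the filter, PLXNA1 and EPHB4 changed sign in these settings; the 7 with a difference of at least 0.5 did not. EFNB1 dropped below 0.5 under quantile normalization, centring and loess (-0.44 to -0.48), SLIT2 under centring, loess and neighbours (-0.33 to -0.49) and EFNA5 under neighbours (-0.37). The 3 genes lower by 0.5 therefore became 1 under centring, 1 under loess and 1 under neighbours, where the share of all genes lower by 0.5 went from 9.81% to 5.82%, 6.47% and 4.997%. The 4 genes higher by 0.5 became 7 under centring and 1 with the filter at the 0.75 quantile, where the share of all genes went from 5.15% to 7.91% and 4.67%. The 1 gene at least 2-fold higher became 3 at 1.5-fold (3.60% of all genes), 0 at 3-fold (0.325%) and 0 with that stricter filter (0.984%); the 0 genes 2-fold lower became 2 at 1.5-fold (6.44%). The median of the 21, 0.21, lay between 0.13 and 0.32 under the scaling, feature and neighbour settings, and was 0.005 with the filter at the 0.75 quantile. Scaling moved the median of all genes past the filter by up to 0.10. Leaving out UNC50 and UNC5CL, chosen after seeing the data, changed no count of calls. No paired analysis was possible because each group holds 1 array. Nearness to background limits the 22 genes below the filter and the folds of UNC5D, NRP1, KDR, DPYSL4 and CHN1, each below it in 1 array. The fold of NEO1 is limited too, as its EGFP vector value of 4.06 lay just above the filter.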
